A study of Drosophila melanogaster with 27 samples.

Results

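Germ cells of the larval ovary of *Drosophila melanogaster* were compared between 72 h after egg laying (AEL), the early stage, and 120 h AEL, the late stage. The comparison used the 3 early and the 3 late libraries of sorted germ cells, which are 6 of the 27 libraries of the series, and left out the 3 libraries of the mid stage (96 h AEL), with which no gene passed the test (0 in either direction in a fit of all 9 germ cell libraries). The early ovaries came from III instar larvae and the late ones from white pupae, reared at 25 °C. The sorted germ cells of both stages have the strain label nos:GAl4>GFP. Mothers carried *UAS:Green Stinger*, a nuclear GFP, and fathers *nos:GAL4*, in which the *nanos* promoter drives GAL4. The paternal line also held a *UAS-Dcr-2* transgene, so the germ cells of both stages carry it. Ovaries of many larvae were pooled and dissociated, and GFP-positive cells were sorted. Somatic cells (bab:Gal4>GFP) were obtained in the same way with *bab:GAL4* males, and an effect of the tissue and of the paternal line cannot be told apart between the sorted groups. Whole ovaries were from the Oregon R strain. Poly(A)-selected RNA was sequenced as single-end reads, and the values are estimated read counts per gene. Each stage had 3 biological replicates.

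The larval ovary holds primordial germ cells, which descend from the pole cells of the embryo and divide without differentiating while the somatic niche forms around them. At the transition from larva to pupa, germ cells next to the new niches become germline stem cells, and those farther away can begin to differentiate. BMP signals from the niche keep the differentiation factor *bam* off in stem cells, and the steroid hormone ecdysone times this step in the ovary.

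The 6 germ cell libraries held between 21678745 and 61560123 counts, so that 3 counts, taken as the floor of detection, correspond to between 0.0487 and 0.138 CPM of the library total. CPM are counts of a gene per 1e6 counts, and those of genes below were scaled between libraries. Genes with any counts numbered 9677, 10071 and 10779 in early replicates 1, 2 and 3. They numbered 12110, 11042 and 10594 in late replicates 2, 3 and 4. The order of these numbers was not that of the library totals, and the reason was not tested. Spearman correlations of gene levels between these libraries ranged from 0.893 to 0.983. *nanos*, the gene whose promoter drives the GFP in these cells, was detected at 317, 270.3 and 259.7 CPM at the early and 274, 223 and 229.9 CPM at the late stage, against at most 2.16 CPM in any somatic library. The germ cell label was thus borne out in all 6 libraries, but somatic RNA was present as well. The median over 14 somatic markers of the level in a germ cell library, as a percent of the somatic cells of the same stage, was 3.35, 33.4 and 52.7% in early replicates 1, 2 and 3 and 25.9, 27.9 and 47.0% in late replicates 2, 3 and 4. These shares overlapped between the stages, and early replicate 1 stood apart with the least somatic RNA. The summed level of all 20 somatic markers did not overlap, at 435 to 1809 CPM at the early and 1963 to 3869 CPM at the late stage, while in somatic cells it was 3933 to 4212 and 7803 to 9666 CPM. Some of these markers were high even in early replicate 1. There *fog* was at 59.6 CPM, against 32.5 to 44.0 CPM in early somatic libraries, and *sli* at 216 CPM, against 401 to 556 CPM. The sum therefore may not count somatic RNA alone. *tj*, a transcription factor of somatic gonad cells, was at 6.33, 114 and 176 CPM at the early and 51.6, 73.7 and 175 CPM at the late stage, with its lowest value in early replicate 1. *bab1*, another gene of the somatic ovary, had a log2 fold change of 1.29 (SE 0.47, adjusted p = 0.207). Of the other cell types that a dissection could carry over, the summed fat body markers lay at 21.6 to 61.8 CPM at the early and 16.5 to 29.4 CPM at the late stage, and the summed muscle markers at 20.2 to 30.4 and 11.4 to 26.3 CPM. Among the hemocyte markers, *He* was at 0 in all 6 libraries and *Hml* was at most 1.23 CPM except in early replicate 1, where it was 125 CPM. The hemocyte list still summed to 89.9 to 246 CPM at the early and 621 to 1197 CPM at the late stage, most of it *Pxn* in the late libraries, a matrix peroxidase that the somatic cells had at 27.4 CPM at the early and 1703 CPM at the late stage.

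Germ cells showed few changes that passed the test, and most of these were decreases of ribosomal protein and respiratory chain genes. Of 10184 genes tested with edgeR's quasi-likelihood test, 15 passed a Benjamini-Hochberg adjusted p of 0.01 (0.147%), of which 14 fell (0.137% of those tested) and 1 rose (0.00982%) from 72 to 120 h. The genes that fell were 8 cytosolic ribosomal protein genes, 3 genes of the respiratory chain, the translation repressor *Thor*, the spliceosomal *SNRPG* and an rRNA pseudogene. At an adjusted p under 0.05 there were 198 genes (1.94%), 148 lower (1.45%) and 50 higher (0.491%), and at an unadjusted p under 0.05 there were 968 lower and 930 higher. DESeq2 gave 361 lower (3.33%) and 250 higher (2.3%) at an adjusted p under 0.01. The 6 libraries did not overlap between the stages for 1358 genes that were lower (13.3%) and 1439 that were higher (14.1%). The number of calls rests on single libraries: without early replicate 1 there were 110 lower and 26 higher genes, without early replicate 2 or 3 or late replicate 4 there were 0 in either direction, without late replicate 2 there was 1 lower gene, and without late replicate 3 there was 1 in each direction. Fewer cells of a type and less RNA per cell cannot be told apart in such libraries.

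**Figure D1:**
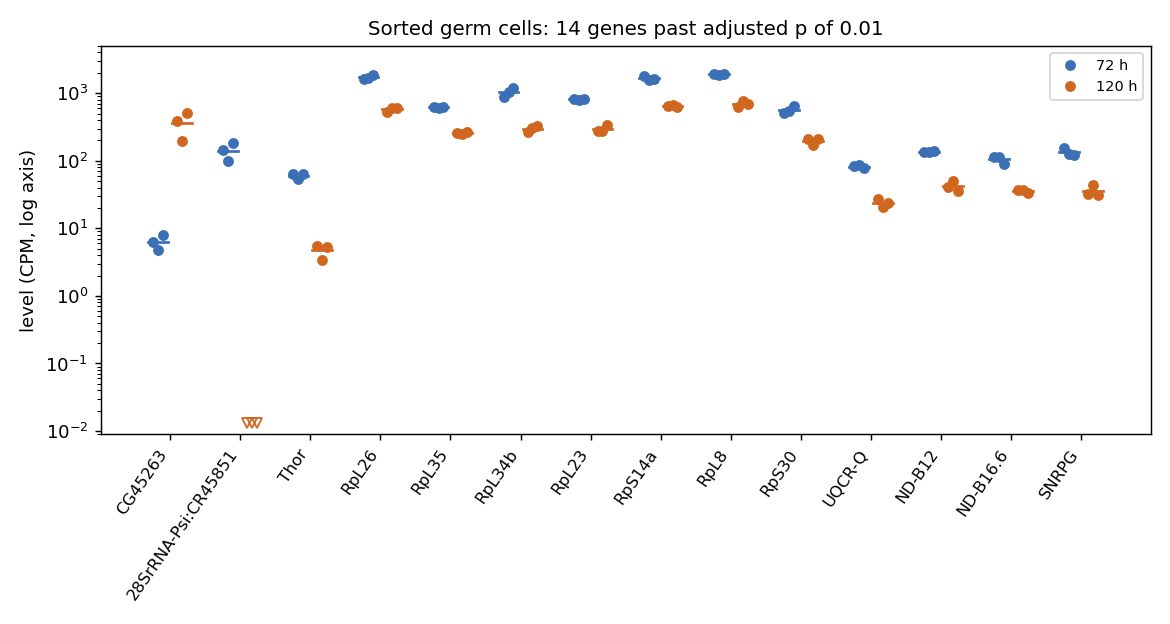
Level of 14 of the genes past an adjusted p of 0.01 in CPM (log axis) in the 3 early (72 h, blue) and 3 late (120 h, orange) germ cell libraries; points are libraries, bars are means, and open triangles mark libraries with no counts. The stages do not overlap for any of these 14 genes, and *CG45263* alone is higher at 120 h.

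*Thor* encodes 4E-BP, which binds the cap-binding factor eIF4E and holds back translation, and which FoxO induces when insulin signaling is low. It lies on chromosome arm 2L between positions 3478434 and 3479612 (BDGP6). *Thor* was at 63.4, 53.6 and 64.1 CPM at the early and 5.46, 3.45 and 5.23 CPM at the late stage. The late libraries were all far below the early ones, and *Thor* fell by 3.68 on the log2 scale (SE 0.25, n = 3 per stage, adjusted p = 0.00432 by edgeR). Somatic cells showed a like decrease, from 55.6 to 3.52 CPM on average (log2 fold change -3.98, adjusted p = 0.000687 by edgeR), and whole ovaries too (-2.79, adjusted p = 0.00273). The difference between germ and somatic cells in this change was 0.29 on the log2 scale (SE 0.56, adjusted p = 0.89). *Thor* was the only 1 of the 28 genes tested of the insulin, TOR and nutrient list that passed either threshold. Over all genes tested, 0.137% were lower at 0.01 and 1.45% at 0.05. The most abundant other members of the list were the kinase *Lk6* (log2 fold change -0.21, adjusted p = 0.47), the growth regulator *Myc* (0.13, adjusted p = 0.675) and the TORC2 subunit *rictor* (0.01, adjusted p = 0.992). Of the core genes of the pathway, the TOR kinase *mTor* was at 391, 249.6 and 251 CPM early and 360.3, 445 and 298 CPM late, and *foxo* at 39.6, 42.1 and 56.5 CPM early and 33.2, 27.1 and 36.6 CPM late. The list's median log2 fold change was -0.000894, against 0.01 over all genes tested.

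Cytosolic ribosomal protein genes encode the protein part of the ribosome, and 8 of the 90 that were tested fell while none rose. Over all genes tested, 0.137% fell and 0.00982% rose. Of all 92 genes of the list, 90 passed the filter on low counts. Their median log2 fold change was -0.60, and 78 were negative. At an adjusted p under 0.05, 30 were lower and none was higher, against 1.45% and 0.491% of all genes tested. The libraries did not overlap for 47 that were lower and 2 that were higher, against 13.3% and 14.1% of all genes tested. The summed level of the list was 9.92, 11.4 and 11.6% of all counts at the early and 7.01, 6.07 and 8.68% at the late stage, with no overlap between the stages. When 1 library was left out, between 0 and 23 ribosomal protein genes passed, with 23 without early replicate 1 and 0 without any of the other 5, while the list's median stayed between -0.76 and -0.47.

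*RpL34b*, of the large subunit, was at 868, 1052 and 1205 CPM at the early and 262, 306 and 323 CPM at the late stage, which is a log2 fold change of -1.81 (SE 0.17, adjusted p = 0.00935). *RpL26*, also of the large subunit, was at 1602, 1699 and 1858 CPM early and 520.4, 608 and 609 CPM late (-1.57, SE 0.14, adjusted p = 0.00935). For both genes every late library was far below every early one. *RpL8*, *RpS14a*, *RpL23*, *RpL35* and *RpS30* fell by between 1.26 and 1.53 on the log2 scale, each with 3 late libraries below all 3 early ones. *RpS14a* has a neighbouring copy, *RpS14b*, that codes for the same protein, and since the counting divided reads between genes, their values are uncertain relative to each other. *RpS14b* was at 1384, 866 and 803 CPM early and 273, 396 and 277 CPM late (adjusted p = 0.028 by edgeR).

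Not all ribosomal protein genes were lower. *RpS10a*, a ribosomal protein gene that was found nearly only in germ cells here (1.09 CPM or less on average in somatic cells), was at 98.2, 63.6 and 57.5 CPM early and 130.3, 118 and 112 CPM late (log2 fold change 0.71, adjusted p = 0.142). *RpL36A* was at 76.0, 63.7 and 74.3 CPM early and 129.7, 130.2 and 259 CPM late (1.28, adjusted p = 0.0707). Both had no overlap between the stages, but neither passed the test.

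**Figure D2:**
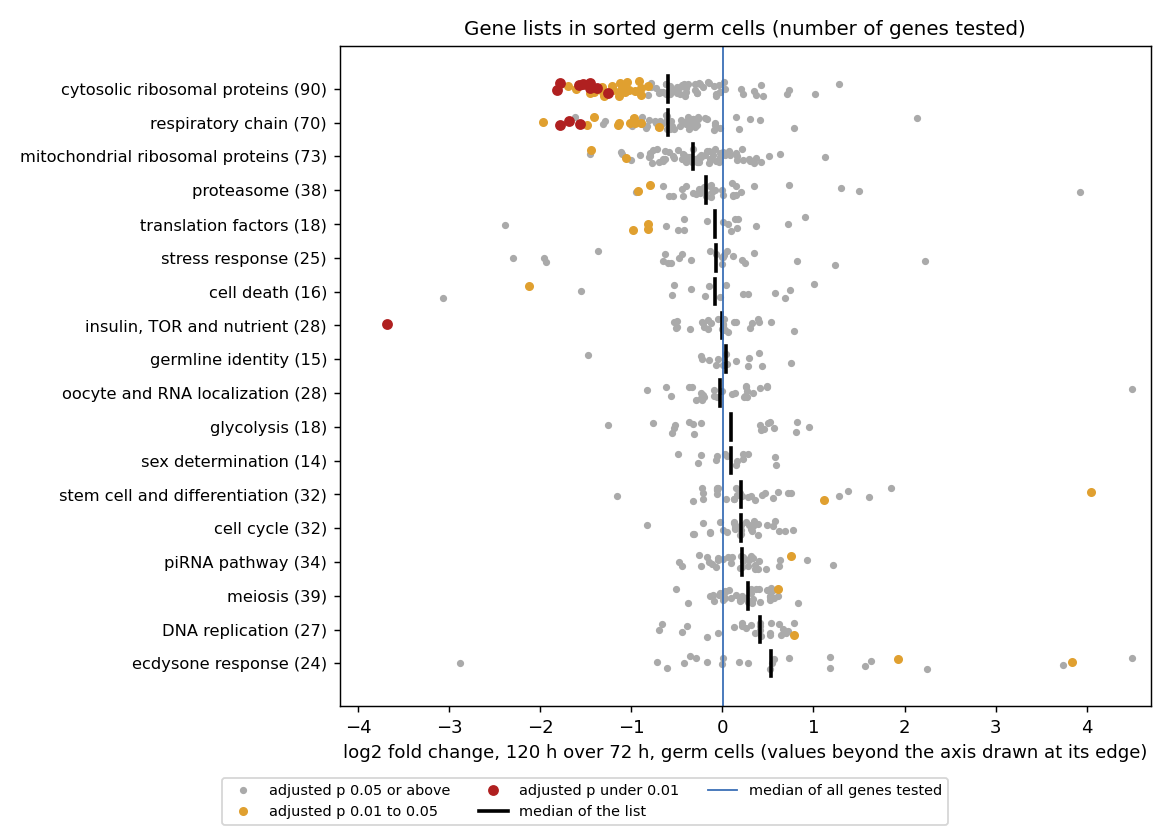
Log2 fold change from 72 to 120 h of each tested gene of 18 lists in germ cells (x axis; the number of genes tested is in brackets), with grey points for an adjusted p of 0.05 or above, orange for 0.01 to 0.05 and red for under 0.01. Black bars are list medians and the blue line is the median of all 10184 genes; ribosomal proteins (-0.60) and the respiratory chain (-0.59) lie lowest and the ecdysone list (0.54) highest.

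The respiratory chain, which produces ATP in mitochondria, followed the same direction. Of 70 tested genes of the list (85 in all), 3 fell and none rose, against 0.137% that fell over all genes tested. At an adjusted p under 0.05, 13 were lower and none higher, against 1.45% and 0.491% of all genes tested. The median log2 fold change was -0.59, with 64 negative. *UQCR-Q*, a subunit of complex III, was at 82.3, 86.3 and 76.8 CPM at the early and 26.9, 20.8 and 23.8 CPM at the late stage (-1.78, SE 0.17, adjusted p = 0.00935). *ND-B12*, of complex I, was at 135, 133 and 138 CPM early and 40.5, 50.5 and 35.7 CPM late (-1.68, SE 0.16, adjusted p = 0.00935). *ND-B16.6*, also of complex I, fell by 1.57 (SE 0.16, adjusted p = 0.00971). Genes transcribed from the mitochondrial genome itself did not share this pattern: none of the 20 tested passed either threshold, and their median was 0.25. *mt:CoI*, of complex IV, was at 4058, 7777 and 8405 CPM early and 8036, 6038 and 14757 CPM late, with overlap between the stages. *mt:lrRNA*, the large mitochondrial rRNA, and *mt:CoII* had log2 fold changes of -0.00 and 0.08. All 3 were lowest in early replicate 1, the library with the least somatic RNA.

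Other lists of the protein machinery had medians nearer to that of all genes. Mitochondrial ribosomal proteins had a median of -0.32 over 73 genes, with none past 0.01 and 2 lower at 0.05 (*mRpS16* and *mRpL12*). The most abundant members, *mRpS30* (-0.25), *mRpS22* (0.30) and *mRpS25* (0.09), had adjusted p-values of 0.307 or above. Proteasome genes had a median of -0.18 over 38 genes, again with none past 0.01 and 2 lower at 0.05 (*Prosbeta7* and *Rpn11*). The most abundant members, *Rpn1* (-0.13), *Rpn2* (0.11) and *Rpn5* (0.21), had adjusted p-values of 0.486 or above. Of 18 translation factors, none passed 0.01, and 3 were lower and none higher at 0.05. Over all genes tested, 1.45% were lower at 0.05. Of the 18, *sta* was at 2424, 2347 and 2280.4 CPM early and 1281, 1317 and 1396 CPM late (-0.82, adjusted p = 0.0287). It codes for a protein of the small ribosomal subunit and is also in the ribosomal protein list. The elongation factor *eEF2* was at 5731, 7611 and 8171 CPM early and 7004, 6943 and 8506 CPM late (0.06, adjusted p = 0.917). *eEF1alpha1*, which brings tRNAs to the ribosome, was at 7613, 12664 and 13141 CPM early and 10042, 8573 and 14966 CPM late (0.01). *Rack1*, a scaffold on the small subunit, was at 3879, 4412 and 4426 CPM early and 2721, 2780.2 and 2785 CPM late (-0.62, adjusted p = 0.0671).

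*SNRPG* codes for an Sm protein, 1 of the ring that forms the core of spliceosomal snRNPs, and it was at 152, 125 and 122 CPM early and 32.0, 43.3 and 31.3 CPM late (log2 fold change -1.90, SE 0.19, adjusted p = 0.00935). 3 other Sm genes, named here after their values were seen, had adjusted p-values between 0.0158 and 0.028 with the same sign (*SmD3* -1.66, *SmD2* -1.40 and *SmE* -1.21). They do not stand for the remaining Sm genes, whose values are not given. The histone variant gene *His3.3A* was at 137, 149 and 159 CPM early and 70.1, 72.9 and 64.8 CPM late (-1.10, adjusted p = 0.0158).

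The genes that fell are short, and length moved with the change over all genes. The median log2 fold change was -0.27 for genes with a longest transcript of up to 500 bases, -0.29 from there to 1000, -0.09 from there to 2000, 0.08 from there to 4000 and 0.17 above 4000 bases (Spearman correlation 0.195 across genes, which are not independent). The Spearman correlation with length was also positive in somatic cells (0.252) and whole ovaries (0.166). Between 500 and 1000 bases, the 53 ribosomal protein genes had a median of -0.57, below the -0.29 of all 1442 genes of that length. With offsets that remove the trend on length from each library, only *Thor* and the rRNA pseudogene passed 0.01, and the medians were -0.38 for ribosomal proteins and -0.31 for the respiratory chain. What length contributes to the decreases was not tested beyond these offsets.

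**Figure D3:**
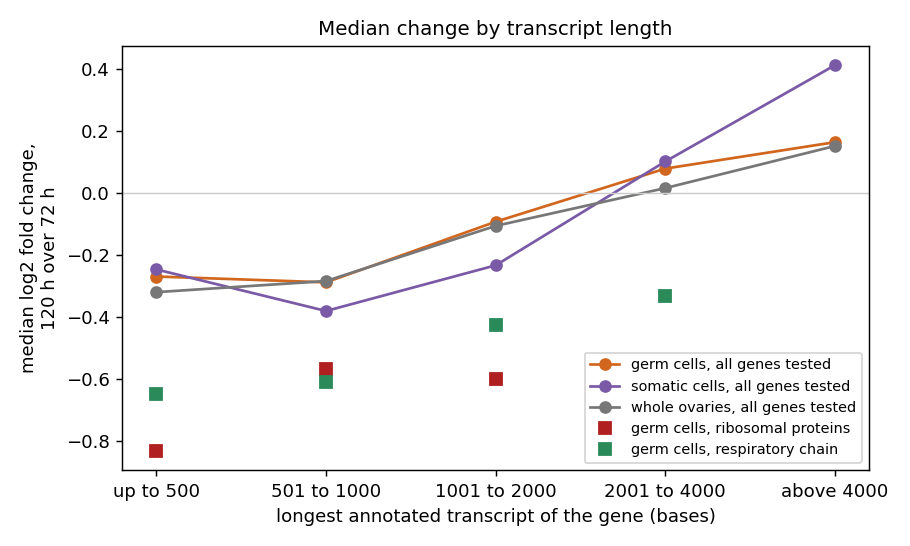
Median log2 fold change from 72 to 120 h (y axis) of genes grouped by the length of their longest annotated transcript in bases (x axis), for all genes tested in germ cells (orange), somatic cells (purple) and whole ovaries (grey). Squares are ribosomal protein (red) and respiratory chain (green) genes in germ cells in groups with at least 4 genes; they lie below the line of all genes in each group.

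The rRNA pseudogene *28SrRNA-Psi:CR45851* had 142, 100.0 and 181 CPM at the early stage and no counts in any late library. Taken from library totals, it was at least 1156-fold lower, with 3 counts per late library as the floor. Its level also varied widely within other groups, since in somatic early libraries it was at 0 in replicates 1 and 3 and at 8258 CPM in replicate 2. It shares its sequence with the rRNA genes, so its reads can be assigned to other copies, and its value is uncertain.

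*CG45263*, a protein-coding gene on arm 3R between positions 8364328 and 8477617, was the only gene that rose. It was at 6.24, 4.73 and 7.88 CPM early and 383, 196 and 503 CPM late in germ cells (log2 fold change 5.85, SE 0.44, adjusted p = 0.00935). In somatic cells its mean went from 11.9 to 1988 CPM (7.38, adjusted p = 0.000147), above the germ cell mean at both stages. The late germ cell libraries had between 7.77 and 18.5% of the somatic level, below the somatic marker share of 25.9 to 47.0% in the same libraries. Leaving out 1 library or changing another setting kept the log2 fold change of *CG45263* between 5.50 and 6.15 and that of *Thor* between -3.78 and -3.39, and 8 and 10 of 16 settings called them.

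The genes that define germ cells showed no change that passed the test. Of the 15 genes of the germline identity list, all of which were tested, none was past 0.05, and the median log2 fold change was 0.04. The helicase *vas* was at 1573, 1072 and 998 CPM early and 1191, 1194 and 917 CPM late (-0.14, SE 0.21, adjusted p = 0.798). *piwi*, which guides transposon silencing in germ and somatic cells, was at 2269, 2317 and 2210.3 CPM early and 2264, 2139 and 2179.7 CPM late (-0.05, SE 0.13). *tud*, the scaffold of polar granules, was at 649, 504 and 516 CPM early and 733, 836 and 631 CPM late (0.40, adjusted p = 0.257). The levels of *vas* and *aub* were highest in early replicate 1, the library with the least somatic RNA.

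*bam*, the switch from stem cell to differentiating cyst, was low at the early stage and high at the late one, but missed the threshold of 0.01. It lies on arm 3R between positions 25243039 and 25245109. The levels were 3.94, 8.59 and 7.47 CPM at the early and 127, 151 and 54.3 CPM at the late stage, and even the lowest late library was above all early ones. The log2 fold change was 4.05 (SE 0.49, adjusted p = 0.0188 by edgeR), and over 16 settings of the processing it stayed between 3.77 and 4.38 with adjusted p-values from 6.67e-18 (DESeq2) to 0.19, under 0.01 in 4 of them. In somatic cells *bam* averaged 1.74 CPM early and 2.53 CPM late, so that the late germ cell libraries were at 1569 to 4703% of the somatic level. The change was 3.51 higher in germ than in somatic cells (SE 0.69, adjusted p = 0.019). Whole ovaries had a log2 fold change of 3.72 (adjusted p = 0.000147).

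Genes linked to *bam* did not all have that pattern. *tut*, whose protein can form a complex with Bam, was at 2.08, 6.77 and 6.75 CPM early and 18.3, 13.5 and 16.1 CPM late (log2 fold change 1.61, adjusted p = 0.14). *bgcn*, the obligate partner of Bam, was at 489, 304 and 264 CPM early and 347, 443 and 226 CPM late (-0.05, adjusted p = 0.96). *Rbfox1*, an RNA-binding protein needed for cyst differentiation, was at 71.3, 58.8 and 61.8 CPM early and 146, 129 and 142 CPM late (1.12, SE 0.14, adjusted p = 0.0164), and it was at similar levels in somatic cells (67.8 and 154 CPM). *tkv*, a receptor for the BMP ligands of the niche, was at 67.3, 84.7 and 127 CPM early and 199.6, 188 and 340.1 CPM late (1.38, adjusted p = 0.0755), and *Dad*, an inhibitor that BMP signaling induces, at 11.9, 43.4 and 40.8 CPM early and 13.2, 14.2 and 15.9 CPM late (-1.15, adjusted p = 0.235). Of the 32 genes tested of the stem cell and differentiation list, *bam* and *Rbfox1* were the only ones past 0.05. Over all genes tested, 0.491% were higher at 0.05. The list's median was 0.20. The most abundant members, *piwi* (-0.05), the translation factor *eIF4A* (0.72, adjusted p = 0.174) and the transcription factor *lola* (0.13, adjusted p = 0.725), did not pass.

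**Figure D4:**
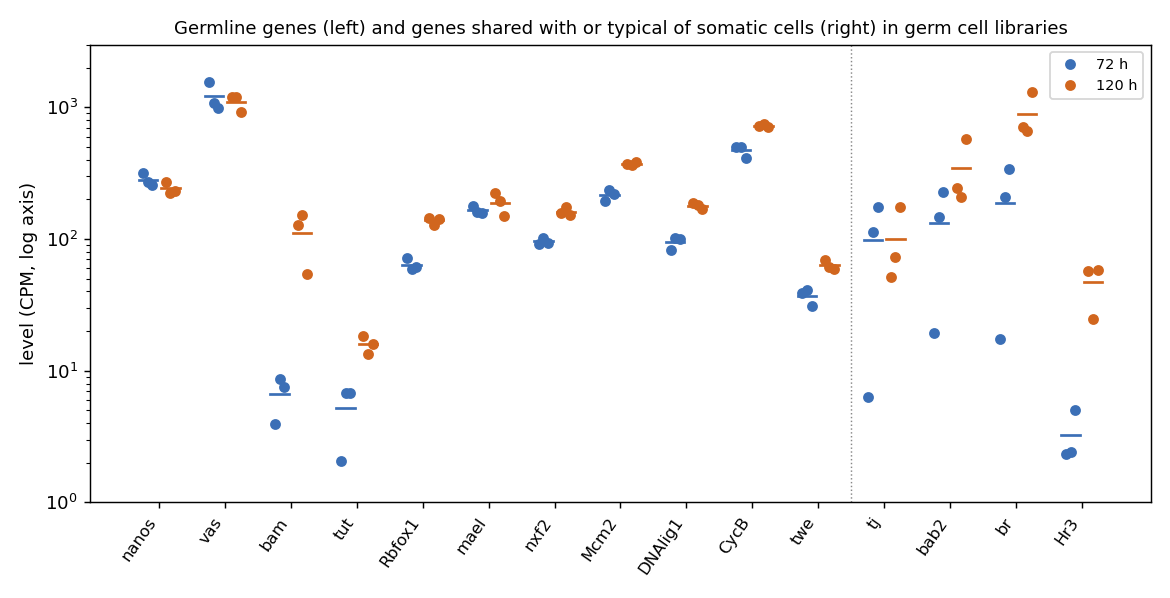
Level in CPM (log axis) of 11 genes with roles in the germline, meiosis, replication or division (left of the dotted line) and 4 genes typical of somatic cells or of the ecdysone response (right) in the 3 early (72 h, blue) and 3 late (120 h, orange) germ cell libraries, with bars at the means. *bam* has no overlap between stages, *nanos* and *vas* overlap, and for *tj*, *bab2* and *br* the lowest early point is replicate 1.

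DNA replication genes lay above all genes as a group, with a median of 0.41 over 27 genes tested and 21 positive, although none passed 0.01. *Mcm2*, a subunit of the replicative helicase, was at 194, 236 and 220.0 CPM early and 369.6, 363 and 386 CPM late (log2 fold change 0.78, SE 0.13, adjusted p = 0.0321). *Mcm6* was at 286, 284 and 290.4 CPM early and 420.1, 418 and 402 CPM late (0.53, adjusted p = 0.0632). *PCNA*, the sliding clamp, was at 473, 317 and 323 CPM early and 277, 315 and 229 CPM late (-0.44, adjusted p = 0.303), so that the helicase genes and the clamp had opposite signs. The most abundant members were *RnrL*, of the reductase that makes deoxynucleotides (0.26, adjusted p = 0.578), and the helicase subunits *dpa* (0.70, adjusted p = 0.0709) and *Mcm3* (0.41, adjusted p = 0.376). *DNAlig1*, the replicative ligase, was not in the list and is named after its values were seen, at 82.7, 102 and 99.9 CPM early and 187, 180.1 and 169 CPM late (0.91, adjusted p = 0.0255). The cell cycle list had a median of 0.20 over 32 genes with none past 0.05, and in it *CycB* was at 503, 498 and 415 CPM early and 725, 749 and 704 CPM late (0.62, adjusted p = 0.0647), *CycG* had a log2 fold change of 0.19 (adjusted p = 0.725) and *CycA* of 0.58 (adjusted p = 0.096).

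Meiosis genes were already present at 72 h. Of 39 tested genes of the meiosis list, none passed 0.01 and *BubR1*, a spindle checkpoint kinase, had an adjusted p of 0.0497. *BubR1* was the only member past 0.05 and was higher, as were 0.491% of all genes tested. The list's median was 0.29, and 32 genes were positive. *c(3)G*, which codes for a protein of the synaptonemal complex, was at 275, 249 and 229.6 CPM early and 431, 370.5 and 286 CPM late (0.53, adjusted p = 0.169), against a mean of 9.51 and 9.79 CPM in somatic cells. *ord*, which holds sister chromatids together, was at 122, 66.3 and 39.1 CPM early and 95.6, 101 and 62.7 CPM late (0.19, adjusted p = 0.878). The most abundant members were the cohesin loader *Nipped-B* (0.49, adjusted p = 0.154) and the kinases *polo* (0.00, adjusted p = 0.997) and *lok* (-0.03, adjusted p = 0.963). Levels of *ord* varied more within the early stage than between the stages.

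The piRNA pathway, which silences transposons, had a median of 0.22 over 34 tested genes. The most abundant members were *piwi* and the genes *spn-E* (0.23, adjusted p = 0.61) and *vas*. *nxf2*, which acts with Piwi on nascent transcripts, was the only member past 0.05, at 91.5, 102 and 94.0 CPM early and 158, 176 and 153 CPM late (0.76, SE 0.12, adjusted p = 0.0334). At 0.05, 0.491% of all genes tested were higher. Of the oocyte and RNA localization list, 28 genes were tested and none was past 0.05. *osk*, the organizer of germ plasm, had no counts in the early libraries and 3.74, 0.335 and 0.850 CPM in the late ones (adjusted p = 0.138). The RNA-binding *Hrb27C* (0.25) and *sqd* (0.41) and the gene *enc* (0.34) were the most abundant of that list and had adjusted p-values of 0.346 or above. The 14 genes tested of the sex determination list had a median of 0.10, with none past 0.05, and *Sxl*, its master gene, was at 616, 499 and 500.1 CPM early and 678, 635 and 646 CPM late (0.28, adjusted p = 0.331). *ovo*, a germline transcription factor, was at 578, 461 and 444 CPM early and 566, 621 and 349 CPM late (0.05).

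The ecdysone list had the highest median of all lists, 0.54 over 24 tested genes (27 in the table). None was past 0.01, and *Hr3* and *Hr4* were higher at 0.05, against 0.491% of all genes tested. *Hr3*, an early-late nuclear receptor of the ecdysone cascade, was at 2.34, 2.41 and 5.05 CPM early and 57.4, 24.6 and 58.7 CPM late (log2 fold change 3.84, SE 0.48, adjusted p = 0.0188). In somatic cells its mean went from 0.553 to 156 CPM, and the late germ cell libraries had 12.4 to 28.4% of the somatic level. *Hr4*, also a nuclear receptor of the cascade, was at 43.7, 22.1 and 20.3 CPM early and 96.7, 96.1 and 135 CPM late (1.93, SE 0.33, adjusted p = 0.0361). *Hr4* had 38.3 to 50.9% of the somatic level at the late stage and 340.4 to 713% at the early stage. *br*, an early ecdysone gene, was at 17.3, 207 and 339.6 CPM early and 711, 666 and 1308 CPM late (2.25, adjusted p = 0.313), with the lowest value in the library with the least somatic RNA. The receptor *EcR* had a log2 fold change of -0.42 (adjusted p = 0.831) and overlapped between the stages. *br* and the genes *crol* (0.52, adjusted p = 0.23) and *Hr39* (0.28, adjusted p = 0.362) were the most abundant of the list.

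Lists of stress, glycolysis and cell death genes had medians of -0.07, 0.09 and -0.08, and none of their genes passed 0.01. *egr*, the fly TNF ligand that acts through JNK, was the only one past 0.05, at 138, 91.3 and 64.3 CPM early and 15.5, 29.6 and 22.4 CPM late (-2.12, SE 0.35, adjusted p = 0.0334). Of all genes tested, 1.45% were lower at 0.05. *Hsp83*, the fly Hsp90, had the highest levels of the stress list and overlapped between stages, at 8290.5, 7806 and 7872 CPM early and 7332, 7571 and 9071 CPM late. The chaperones *Hsc70-4* (-0.14) and *Hsc70-3* (0.82) had adjusted p-values of 0.737 and 0.162. *PyK*, pyruvate kinase, was at 849.6, 626 and 583 CPM early and 399, 479.5 and 336 CPM late (-0.76, adjusted p = 0.105), while *Gapdh2* (0.81, adjusted p = 0.243) and *Eno* (0.50, adjusted p = 0.225) of the same pathway had the opposite sign. In the cell death list, the inhibitor *Diap1* (0.69), the JNK kinase *hep* (0.04) and the apoptosome gene *Dark* (0.23) had adjusted p-values of 0.296 or above.

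Of the 617 tested genes with a somatic mean under 10% of the germ cell mean at both stages (6.06% of all tested), none passed 0.01, 2 were higher and 3 lower at 0.05, and the median log2 fold change was -0.04. Over all genes tested, 0.147% passed 0.01 and 1.94% passed 0.05, and whether the shares differ was not tested. *eIF4E3*, a cap-binding protein gene, was at 32.4, 27.2 and 26.5 CPM early and 94.7, 65.9 and 60.9 CPM late (1.36, adjusted p = 0.0304). *Trf5* was at 10.2, 6.77 and 7.03 CPM early and 24.9, 22.5 and 24.2 CPM late (1.58, adjusted p = 0.0334). *dhd*, a thioredoxin of the female germline, was at 48.8, 29.4 and 17.3 CPM early and 3.74, 2.94 and 5.95 CPM late (-2.92, adjusted p = 0.0304). The other 2 lower genes were copies of the 7SL RNA with identical values (36.7 CPM early and 10.7 CPM late on average), so they count as 1 measurement. These 5 genes are named after their values were seen.

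Most genes that passed in germ cells had the same sign in somatic cells, where far more genes passed the test. In somatic cells 974 genes rose (10.5% of 9316 tested) and 964 fell (10.3%) by the same test, where the biological coefficient of variation was 0.459 against 0.589 in germ cells. Of the 14 genes that fell in germ cells, 13 were tested in somatic cells, all 13 had a negative fold change there, and 4 fell there too (*Thor*, *RpL26*, *RpL34b* and *RpS14a*). At an adjusted p under 0.05 in germ cells, 86 of 144 lower genes that were tested in somatic cells fell there, and 33 of 47 higher genes rose there. Somatic early replicate 2 stood apart in ribosomal protein genes, for example at 591 CPM of *RpL35* against 266 and 230.4 CPM in the other early replicates. Of the ribosomal protein list, 16 of 88 tested genes fell and 3 rose in somatic cells (median -0.71), and 0 fell and 1 rose of 90 in whole ovaries (median -0.47). Whole ovaries as such had 600 genes that rose (6.16% of 9744 tested) and 1133 that fell (11.6%).

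**Figure D5:**
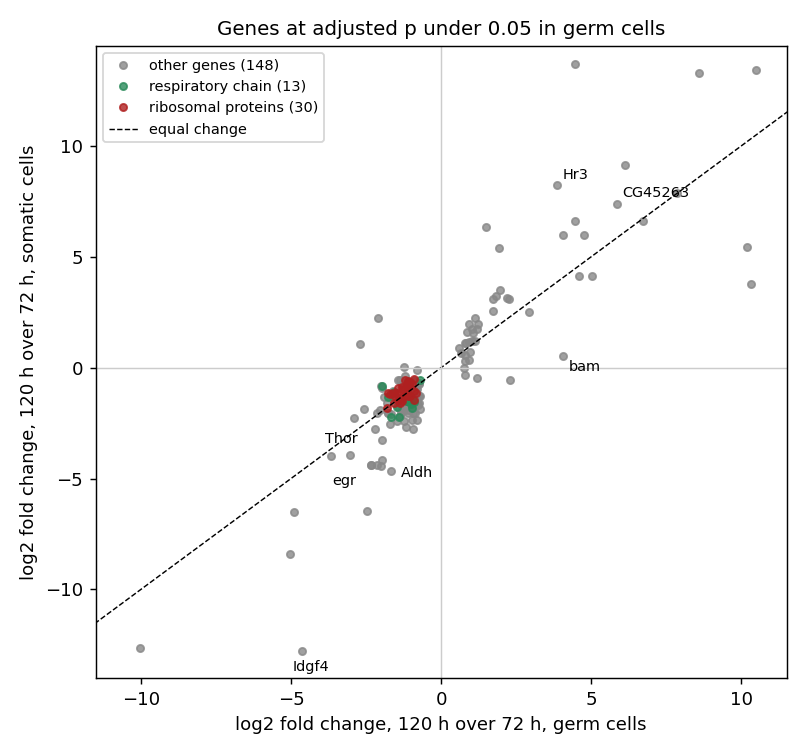
Log2 fold change from 72 to 120 h in germ cells (x axis) and in somatic cells (y axis) of the 191 genes past an adjusted p of 0.05 in germ cells that were tested in both, with ribosomal protein genes in red (30), respiratory chain genes in green (13), other genes in grey (148) and a dashed line of equal change. Most points lie in the lower left and upper right; *bam* (4.05 and 0.54) lies off the line.

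Among the 50 genes that were higher at an adjusted p under 0.05, 40 had a somatic mean above the germ cell mean at either stage, against 55.8% of all genes tested. In each late library, the germ cell level as a percent of the somatic mean was set against the somatic marker share of that library. It was above the share in all 3 late libraries for 28 of the 50 genes, against 80.5% of all genes tested, and in none of the 3 for 5 genes (*CG45263*, *CG46321*, *sm*, *Tpst* and *CG7582*). *bam*, *Rbfox1*, *nxf2*, *Mcm2*, *DNAlig1* and *Hr4* were among the 28. *Col4a1*, a collagen of the basement membrane, was not, at 119.6, 56.9 and 42.3 CPM early and 1282, 675 and 1693 CPM late (adjusted p = 0.0296), with somatic means of 34.8 and 2182 CPM. The share is a median over markers, so single somatic markers also lay above it. In the late germ cell libraries *bab1* was at 55.3 to 148% of the somatic level and above the share in all 3. *tj* (25.4 to 81.9%) and *bab2* (22.5 to 58.4%) were above it in 2. Being above the share thus cannot set a gene apart from carried-over RNA. The part of carried-over RNA was not tested for any gene.

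The difference between germ and somatic cells in the change from 72 to 120 h was itself tested over 12 libraries. Of 11002 genes, 64 had a higher (0.582%) and 35 a lower change (0.318%) in germ cells at an adjusted p under 0.01. For 63 of the 64 genes and 28 of the 35, somatic cells had changed, and no gene of either group had passed 0.01 in germ cells alone. The median log2 fold change of the 64 genes was -0.17 in germ and -2.01 in somatic cells.

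Several of these genes kept levels in germ cells that somatic cells did not. *mael*, a piRNA factor, was at 177, 161 and 158 CPM early and 225, 193 and 149.8 CPM late in germ cells, whereas its somatic mean went from 108 to 24.8 CPM (difference 2.31, SE 0.24, adjusted p = 0.000833). *rdog*, an ABC transporter gene, was at 382, 279.9 and 238 CPM early and 221, 307 and 173 CPM late in germ cells, against somatic means of 379.7 and 19.9 CPM (difference 3.90, SE 0.40, adjusted p = 0.000833). *Men-b*, a malic enzyme, was at 357, 275 and 286 CPM early and 216.9, 275 and 169 CPM late, against somatic means of 247 and 41.9 CPM (difference 2.08, SE 0.27, adjusted p = 0.00218). For *Aldh*, an aldehyde dehydrogenase, both were lower at the late stage, with 388, 693 and 708 CPM early and 195, 185 and 180.4 CPM late in germ cells and somatic means of 906 and 36.3 CPM (difference 2.95, SE 0.30). The 3 early values of *mael* lay close to each other across libraries whose somatic share ranged from 3.35 to 52.7%. Its somatic level was 85.1% of the germ cell level at the early and 17.1% at the late stage. The part of carried-over RNA in these values was not tested.

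In the other direction, the median log2 fold change of the 35 genes was 0.17 in germ and 3.42 in somatic cells. *Grip*, a PDZ-domain scaffold, was at 118, 104 and 86.8 CPM early and 165, 175 and 119.6 CPM late in germ cells, while its somatic mean went from 5.31 to 48.6 CPM (difference -2.63, SE 0.31, adjusted p = 0.00171). *CG31075* was at 30.5, 39.3 and 31.7 CPM early and 50.9, 44.3 and 51.9 CPM late in germ cells, with somatic means of 2.03 and 25.6 CPM (difference -3.14, SE 0.34). *stet*, a rhomboid protease that germ cells use to signal to somatic cells, was at 60.8, 44.2 and 52.1 CPM early and 85.6, 83.7 and 43.8 CPM late in germ cells. It had no counts in the somatic early libraries and a mean of 2.15 CPM in the late ones, so that its fitted difference depends on the prior count and is no bound. The number of such genes moved between 8 and 63 in the higher and 7 and 46 in the lower direction when 1 of the 12 libraries was left out, with the fewest without somatic late replicate 1.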

How the data were processed

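Expected counts per gene, which need not be whole, were deposited by the authors, who aligned single-end reads with STAR 2.7.6a and estimated counts with RSEM 1.3.3 (versions per the submitters' processing notes) on the FlyBase 6.36 annotation. RSEM divides reads that fit several genes. Counts were rounded. Of 16257 gene identifiers, 16206 had a symbol and position in the Ensembl BDGP6 annotation, whose longest transcript gave the gene length. Whether reads were counted by strand is not given in the sources used here.

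The 6 germ cell libraries were tested late against early with edgeR 4.0.16 (R 4.3.3; filterByExpr with a minimum count of 10 and total of 15, TMM factors, robust quasi-likelihood fit, Benjamini-Hochberg adjustment over all genes tested); all adjusted p-values in the report are from this test unless DESeq2 is named. Somatic cells and whole ovaries were fitted alone, and the difference in change was fitted over the 12 sorted libraries. An exact permutation test of 3 against 3 libraries cannot go below p = 0.1 and was not used. CPM values of germ cells were TMM-scaled over their 6 libraries and those of somatic cells over theirs; summed markers and percents of the somatic level use 1 scale over the 12. The somatic share is the median over the 14 of 20 markers with at least 10 CPM in somatic cells. Offsets for length were loess fits (span 0.5).

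Named genes were those past 0.01 (at most 15 in each direction), of each list up to 6 members past 0.01 or, with fewer than 3, the 3 with the highest mean, the markers *nanos*, *vas*, *tj*, *bab1* and *bab2*, and the 10 strongest differences between germ and somatic cells in each direction. Every other gene, among them *bam*, *Rbfox1*, *tut*, *Mcm2*, *nxf2*, *Hr3*, *Hr4* and *egr*, was chosen after its values were seen. The members and lists were chosen with earlier results of these data known. Alternatives were RLE factors, library totals, DESeq2 1.42.0, limma 3.58.1 voom, no filter, all 9 germ cell libraries, the somatic share as covariate, a replicate block, each library left out, and, chosen after seeing the data, length offsets and leaving out both the library with the least and the late library with the most somatic RNA. Scripts were tested on simulated data. The values of 1 gene that passed are not reported here.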

Additional observations from a re-analysis of the deposited data

Results flagged for a closer look

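For 20 genes the change from 72 to 120 h differed between germ and somatic cells by the test of the difference itself (edgeR over 12 libraries, adjusted p between 0.000833 and 0.00342). These are the 10 with the smallest p in each direction. Each value below is the log2 fold change in germ cells minus that in somatic cells.

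The change was higher in germ cells for *Aldh* (2.95), *rdog* (3.90), *mael* (2.31), *Abca3* (3.74), *Oseg5* (2.7), *pit* (1.48), *Tsp42Ed* (4.73), *Rbm13* (2.19), *bgm* (3.25) and *Men-b* (2.08). *pit*, a DEAD-box helicase gene, was at 119.5, 132 and 119 CPM early and 142, 141 and 149.6 CPM late in germ cells, with somatic means of 123 and 51.1 CPM. *Abca3* was at 199.5, 168 and 171 CPM early and 121, 142 and 58.4 CPM late in germ cells, with somatic means of 111 and 4.97 CPM. *Oseg5*, a gene of intraflagellar transport, was at 21.3, 16.5 and 17.6 CPM early and 24.0, 39.3 and 25.0 CPM late in germ cells, with somatic means of 109 and 26.7 CPM. In all 10 genes the level fell in somatic cells at an adjusted p under 0.01. None passed 0.01 in germ cells, where 0.147% of all genes tested did, and *Aldh* fell there with an adjusted p of 0.0228 (edgeR).

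The change was lower in germ cells for *CG46321* (-9.57), *stet* (-9.01), *CG31075* (-3.14), *beat-IIb* (-10.31), *Grip* (-2.63), *Reph* (-3.14), *RapGAP1* (-1.65), *stj* (-9), *fog* (-1.93) and *Rbp6* (-10.21). For *CG46321*, *stet*, *beat-IIb*, *stj* and *Rbp6* all 3 early somatic libraries had no counts, so that the fitted value depends on the prior count and is no bound. *CG46321* overlaps *Hr3* on chromosome arm 2R, and its values are uncertain. *Reph* was at 138, 109.6 and 85.1 CPM early and 139.8, 145 and 121 CPM late in germ cells, with somatic means of 8.99 and 95.8 CPM. *RapGAP1*, a GTPase-activating protein gene, was at 128, 113 and 113 CPM early and 149, 133 and 120.3 CPM late in germ cells, with somatic means of 16.3 and 57.9 CPM.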

How the results depend on the processing

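The number of genes that passed in germ cells (1 higher and 14 lower) depended on the setting. It was 1 and 3 with RLE factors, 1 and 8 with library totals, 250 and 361 with DESeq2, 0 and 19 with limma voom, 11 and 42 without the filter, 0 and 0 with all 9 germ cell libraries, 70 and 170 with the somatic share as covariate, 0 and 2 with length offsets, 50 and 177 without both early replicate 1 and late replicate 4, and 50 and 148 at an adjusted p under 0.05. With each library left out in turn it ranged from 0 to 26 and from 0 to 110. A replicate block gave 63 and 230, but only the numbers 2 and 3 are shared, and same-numbered libraries did not deviate together (r = -0.05 and -0.26), so they share only a number. For the difference between germ and somatic cells (64 higher and 35 lower), the counts were 289 and 245 with DESeq2, 29 and 10 with the replicate block, 90 and 61 without both libraries, and 8 to 63 and 7 to 46 with each library left out. The sign turned for genes that had not passed: *vas* was 0.21 with the replicate block, 0.24 without both libraries and -0.26 to 0.11 with each left out, and *tj* was -1.20, -1.17 and -0.65 to 0.74, and -0.0795 with length offsets, and passed 0.01 with the replicate block only (edgeR adjusted p = 0.00388, against 0.0462 or above in the other settings). The causes were not tested. Values over 16 settings each were compared for the genes that passed, *nanos*, *vas*, *tj*, *bab1*, *bab2*, *bam*, *Rbfox1*, *Hr3*, *Hr4*, *egr*, *Mcm2*, *nxf2* and *Idgf4*. Of these values, 289 kept their direction and side of the threshold, 121 lost and 30 gained a call, and 8 changed sign. Only genes that passed could lose a call, and the 289 also hold values of genes that had none to lose. Calls rest on 3 libraries a stage with unequal somatic RNA, and the floor of 3 counts stands for between 0.0487 and 0.138 CPM. How far above this floor a transcript can go undetected was not tested.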
